A study of Mus musculus with 12 samples.

Results

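Among 35583 genes with a listed transcript in mouse dorsal root ganglia, 8 encode the inhibitory receptors described here. They were listed by name, and the list was drawn up with earlier results of these data known. They are the opioid receptor genes Oprm1, Oprd1, Oprk1 and Oprl1, the cannabinoid receptor gene Cnr1, the somatostatin receptor gene Sstr2, and the adrenergic receptor genes Adra2a and Adra2c. All 8 were found in every library and passed the filter on low counts in each comparison. Dorsal root ganglia hold the cell bodies of the sensory neurons that carry touch, itch, heat and pain signals to the spinal cord.

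Poly(A) RNA was sequenced from ganglia of wild-type (WT) and YAC Q84 mice aged 24 weeks. Q84 is a mouse model of spinocerebellar ataxia type 3 in which human ATXN3 with an expanded CAG repeat was introduced on a yeast artificial chromosome (YAC), so the transgene is not limited to sensory neurons by a cell-type promoter. There were 3 WT male, 3 WT female, 1 Q84 male and 5 Q84 female libraries. The strain, and whether the libraries stand for different animals, are not stated in the labels, and p-values therefore cover only the variation among libraries. The ganglia are a mixed tissue, and in such RNA fewer cells of a type and less RNA per cell cannot be told apart.

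All 8 receptors couple to the Gi/o class of G proteins. When an agonist binds, the freed G protein subunits lower cyclic AMP production, close voltage-gated calcium channels at the nerve terminal and can open GIRK potassium channels, which together reduce transmitter release and firing. In sensory neurons this pathway is known as the peripheral target of opioids, cannabinoids, somatostatin analogues and alpha2 agonists such as clonidine.

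The genotype labels were checked with a 1000-base transcript of Atxn3, the mouse counterpart of the transgene, which takes up reads of the human gene. It lay at 62.7 to 79.4 TPM (a level scaled to transcript length) in Q84 male 1 and Q84 female 1 to 4, and at 0 to 0.285 TPM in 5 WT libraries. It was at 34.0 TPM in the library labelled WT female 2 and at 0.0612 TPM in that labelled Q84 female 5, so both went against their labels. They were moved to no other group. Each of the 8 receptor genes is given for the 12 libraries as labelled and for the 10 libraries without these 2, with the values of both apart. Depth was similar throughout, at 66490481 to 86891563 estimated counts per library. Summed markers of all neurons lay at 8513 to 10320 CPM (counts scaled to library size with TMM) in the 5 WT and 8080 to 8771 CPM in the 5 Q84 libraries, and none of these 10 markers passed the test. Those of peptidergic nociceptors lay at 2548 to 3164 against 1367 to 2018 CPM (4 of 6 markers lower), of non-peptidergic nociceptors at 700 to 1485 against 516 to 737 CPM (4 of 6 lower) and of itch neurons at 150 to 233 against 107 to 142 CPM (5 of 7 lower). Those of C-fibre touch neurons lay at 170 to 421 against 126 to 175 CPM (2 of 4 lower), and of large myelinated neurons at 884 to 1339 against 840 to 993 CPM (1 of 6 lower). Over all 18721 genes tested in the 10 libraries, 4.93% were called lower (edgeR). None of these sensory neuron markers passed in the 12 libraries as labelled. In the order given, the sums of these 5 sets were 2133, 1111, 211, 185 and 1066 CPM in WT female 2. They were 2550, 1336, 226, 352 and 1275 CPM in Q84 female 5.

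The genome sequence just before the start sites of 2 of these genes is shown because Cnr1 is the member that passed the test below and Sstr2 had the largest estimated change. The sequences are from RefSeq (GRCm38.p6, plus strand, 5′ to 3′). Capitals mark TGACGTCA, the cAMP response element, and GGGCGG, the GC box, on either strand.

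Cnr1, chr4:33924014-33924263: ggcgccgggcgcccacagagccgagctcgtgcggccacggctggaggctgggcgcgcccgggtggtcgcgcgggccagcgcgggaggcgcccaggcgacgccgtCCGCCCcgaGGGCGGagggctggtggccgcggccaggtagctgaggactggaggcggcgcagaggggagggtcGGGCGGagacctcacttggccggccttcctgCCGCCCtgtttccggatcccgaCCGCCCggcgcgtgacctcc
Sstr2, chr11:113619077-113619326: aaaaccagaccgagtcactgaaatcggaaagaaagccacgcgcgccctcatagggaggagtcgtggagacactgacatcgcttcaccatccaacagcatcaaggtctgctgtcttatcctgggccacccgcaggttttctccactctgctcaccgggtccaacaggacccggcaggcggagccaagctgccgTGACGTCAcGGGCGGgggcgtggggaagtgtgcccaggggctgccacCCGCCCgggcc

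The Sstr2 window holds TGACGTCA 58 bases before its start site, and Sstr2 was the only member among the 7 with a window in the RefSeq table to hold it. Of 32851 windows of 250 bases before RefSeq start sites, 1.55% hold this motif on either strand. The GC box was found before 4 of the 7 members and in 32.7% of those windows. The TATA box (TATAAA) was found before 2 members and in 12.4% of windows, and the E-box (CACGTG) before 4 members and in 6.02%. The 7 members had 13 windows, so a member with several starts had more sequence to match. The sequence listed for some of these windows is shorter than 250 bases, with 3 for Adra2c and 0 for Adra2a. The matches of Adra2a and Adra2c and the E-box of Cnr1 lie outside the listed sequence, so they could not be read again there. A match describes the letters of the window only.

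Per transcript length, Cnr1 was the most abundant of the 8 receptors in the ganglia, followed by Oprl1 and Oprm1. The level of Cnr1 was 17.2 ± 3.44 TPM, of Oprl1 12.4 ± 1.92 TPM and of Oprm1 8.85 ± 2.86 TPM (SD, n = 12). Below these, Sstr2 lay at 1.88 ± 0.961 TPM, Oprk1 at 1.15 ± 0.250 TPM and Adra2a at 0.820 ± 0.207 TPM. Adra2c at 0.651 ± 0.182 TPM and Oprd1 at 0.607 ± 0.181 TPM were the lowest, and Adra2c was above Oprd1 in 8 of 12 libraries. The ranges of every pair of neighbours in this order overlapped. Cnr1 was nevertheless above Oprl1, and Oprm1 above Sstr2, within all 12 libraries.

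**Figure D1:**
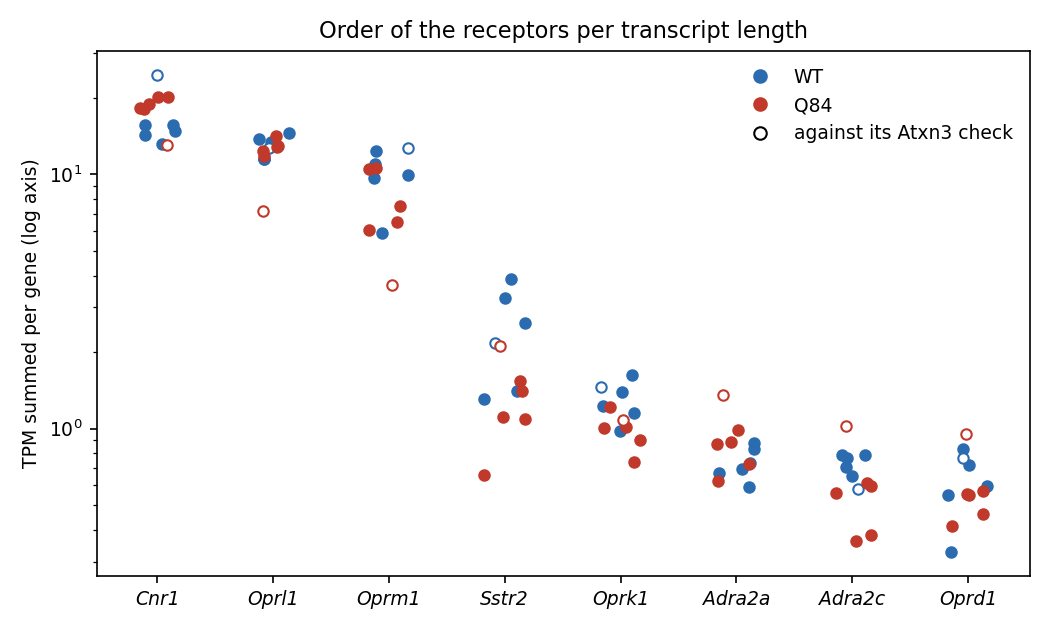
Summed TPM of each receptor gene in each library (log axis), blue for WT and red for Q84, with open points for WT female 2 and Q84 female 5, kept apart. Cnr1, Oprl1 and Oprm1 lie at 3.67 TPM or above in every library, and the other 5 genes reach at most 3.87 TPM.

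In the 12 libraries as labelled, none of the 8 receptor genes passed the test between Q84 and WT (edgeR quasi-likelihood test, Benjamini-Hochberg adjusted p of 0.338 to 0.957). At an unadjusted p under 0.05 there was 1 member, Sstr2, beside 2695 of all 18875 genes tested. DESeq2 and limma-voom each called 0 members. Of the 18875 genes tested, edgeR called 0.0053%. In the 10 libraries, 1 of the 8 members rose, which was Cnr1, 0 fell and 7 did not pass, where 6.45% of 18721 genes were called, 4.93% lower and 1.52% higher. DESeq2 and limma-voom likewise each called 1 member there, among 1933 and 1118 genes called in all. The median log2 fold change of the 8 members was -0.19 beside 0.01 for all genes tested, with 5 estimates below 0 and 3 above.

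**Figure D2:**
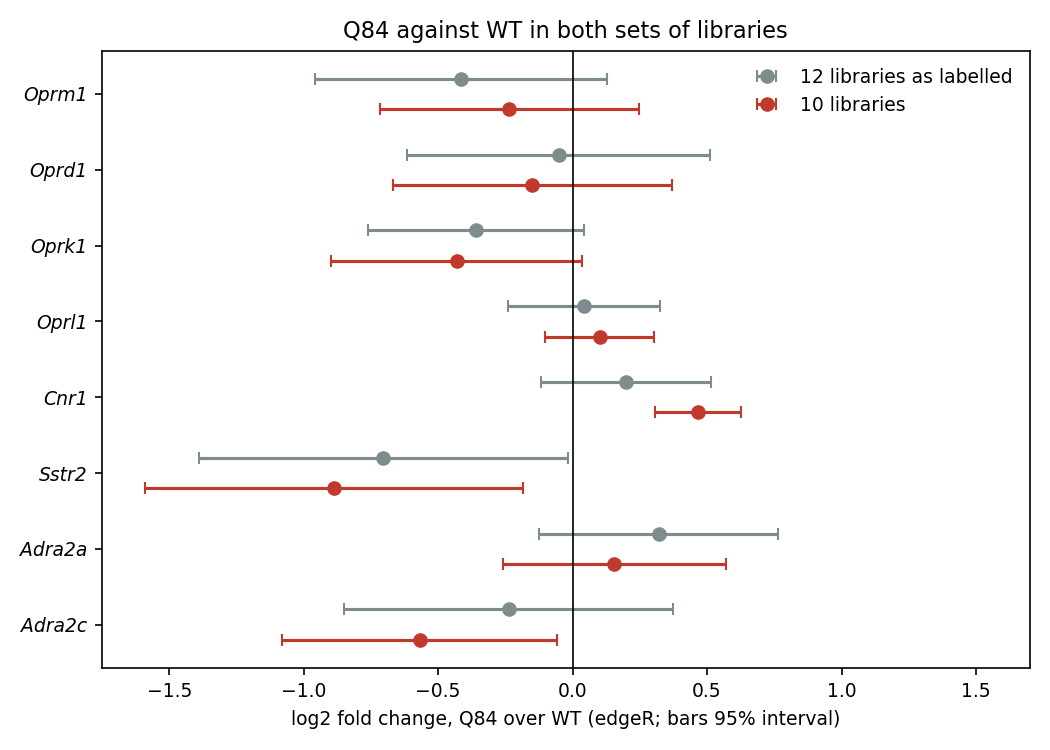
Log2 fold change of Q84 over WT for each receptor gene, with its 95% interval from the edgeR model, in the 12 libraries as labelled (grey) and the 10 libraries without WT female 2 and Q84 female 5 (red). The interval of Cnr1 in the 10 libraries runs from 0.31 to 0.62, and those of Sstr2 and Adra2c also lie below 0 there without passing after adjustment.

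Cnr1 (ENSMUSG00000044288, chromosome 4) encodes the CB1 receptor, the main cannabinoid receptor of neurons. The 5 WT libraries held 60.1, 60.4, 59.7, 58.3 and 52.3 CPM in WT male 1 to 3 and WT female 1 and 3. The Q84 libraries held 76.8 CPM in the male and 82.4, 78.7, 83.3 and 74.3 CPM in female 1 to 4. Every one of these Q84 libraries lay above every one of these WT libraries, as was so of 2.71% of genes tested. In either direction 8.67% of genes did not overlap in the 10 libraries and 1.56% in the 12, where all 8 members overlapped. Mean Cnr1 was 58.1 ± 3.39 CPM in WT and 79.1 ± 3.77 CPM in Q84 libraries (SD, n = 5 per genotype). The log2 fold change was 0.47 (SE 0.073, edgeR adjusted p = 0.00253).

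The 2 libraries kept apart showed the opposite order for Cnr1. The library labelled WT female 2 held 93.8 CPM, the highest of all 12, and Q84 female 5, as labelled, had 55.4 CPM, within the range of the 5 WT libraries. With both under their labels the log2 fold change of Cnr1 was 0.20 (SE 0.15, edgeR adjusted p = 0.587). Leaving out WT female 2 alone gave 0.41 (adjusted p = 0.109), and leaving out Q84 female 5 alone gave 0.27 (adjusted p = 0.285). The call of Cnr1 therefore needed both to be left out. In the 10 libraries it was kept under all 20 alternatives, with adjusted p-values of 6.18e-08 to 0.0247. When libraries were scaled to the summed neuronal markers in place of all genes, the log2 fold change was 0.61 (adjusted p = 0.00271).

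Cnr1 was also called in the 6 female libraries, which are part of the 10 libraries and not a separate sample. In the 6 female libraries its log2 fold change was 0.54 (SE 0.087, edgeR adjusted p = 0.00368), where 5.12% of 17398 genes were called and 1.32% were called higher. Without WT female 3 the adjusted p of Cnr1 was 0.0513. In the 8 female libraries as labelled the log2 fold change of Cnr1 was 0.14 (edgeR adjusted p = 0.833). None of the 8 members was called there by edgeR, DESeq2 or limma-voom. At an unadjusted p under 0.05 there was 1 member, Oprm1, beside 1826 of 17244 genes. Of these genes edgeR called 0% and DESeq2 called 149.

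**Figure D3:**
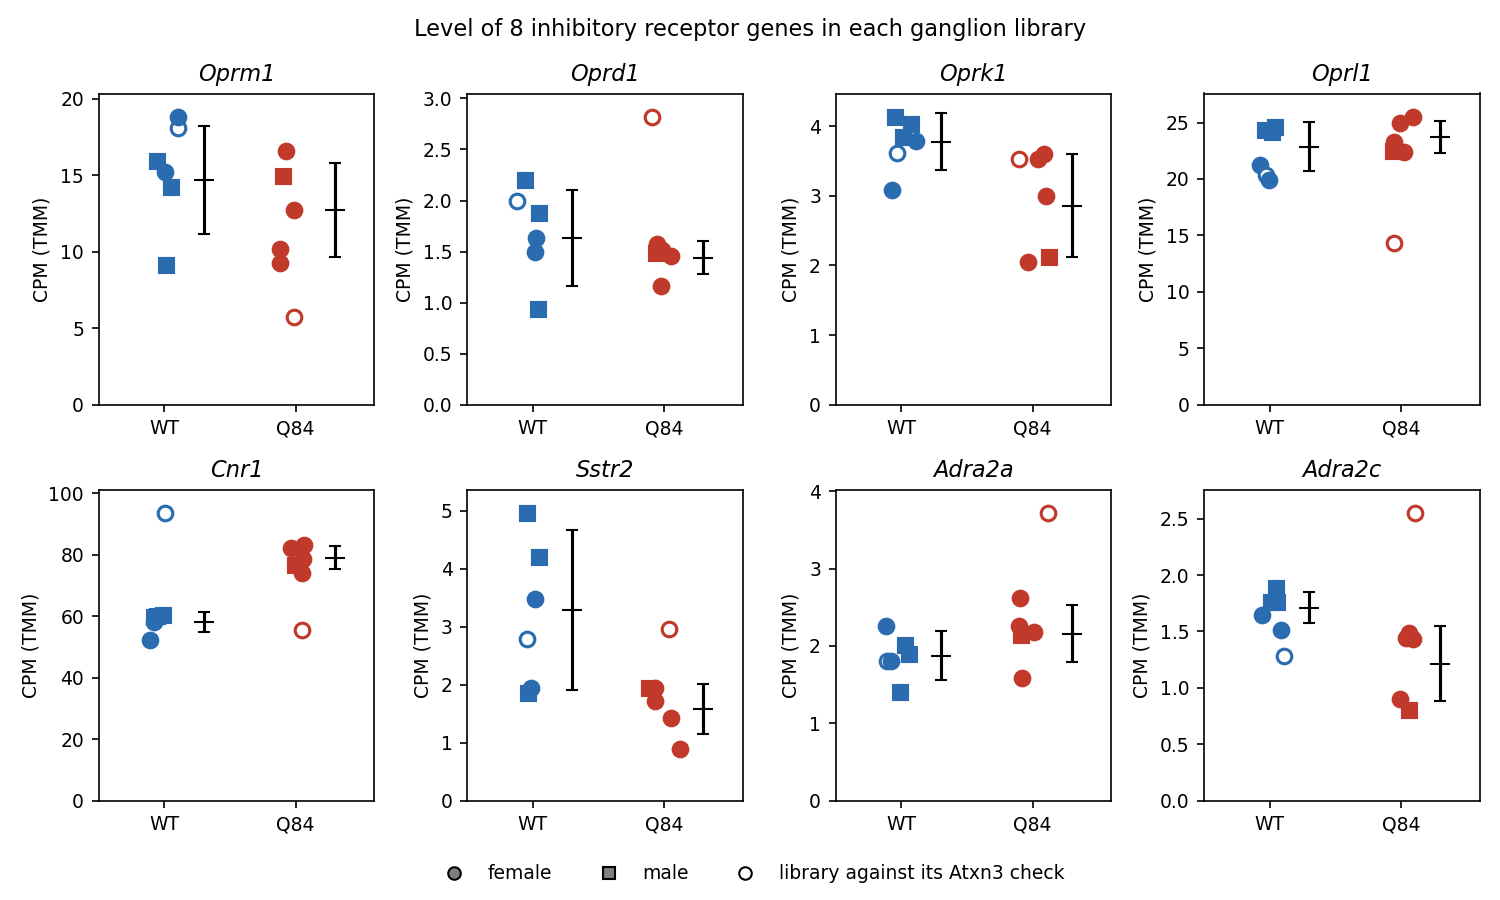
CPM of the 8 receptor genes in each library, as circles for females and squares for males, with the mean and SD of the 5 WT and 5 Q84 libraries as bars beside the points. Open circles are WT female 2 and Q84 female 5, kept apart. Cnr1 separates the filled points by genotype, at 52.3 to 60.4 CPM in WT and 74.3 to 83.3 CPM in Q84.

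Oprm1 (ENSMUSG00000000766, chromosome 10) encodes the mu opioid receptor, through which morphine acts. WT male 1 to 3 held 9.13, 14.3 and 15.9 CPM, and WT female 1 and 3 held 15.2 and 18.8 CPM. Q84 male 1 held 15.0 CPM and Q84 female 1 to 4 held 16.6, 10.2, 12.7 and 9.24 CPM. The groups overlapped over most of their range, since the lowest WT library was below every Q84 library. The log2 fold change of Oprm1 in the 10 libraries was -0.23 (SE 0.22, 95% interval -0.72 to 0.25, edgeR adjusted p = 0.622). WT female 2 had 18.1 CPM and Q84 female 5 had 5.73 CPM, the lowest of the 12. With both included the log2 fold change was -0.41 (SE 0.25, adjusted p = 0.487). The estimate of Oprm1 in the 10 libraries was -0.48 without Q84 male 1 and -0.075 without WT female 3.

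Among females Oprm1 had a larger estimated difference. Its log2 fold change in the 6 female libraries was -0.47 (edgeR adjusted p = 0.305), and without Q84 female 1 it was -0.66 and passed (adjusted p = 0.0430). That fit without Q84 female 1 called 976 of 17267 genes. An annotated exon of Oprm1 overlaps an exon of Ipcef1 on the opposite strand. Ipcef1 reached at most 3.79 CPM, and whether strand was used in counting is not stated.

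Oprk1 (ENSMUSG00000025905, chromosome 1) encodes the kappa opioid receptor, whose natural ligands are the dynorphins. It lay at 3.84, 4.03 and 4.14 CPM in WT male 1 to 3 and at 3.08 and 3.79 CPM in WT female 1 and 3. Q84 male 1 held 2.12 CPM, and Q84 female 1 to 4 held 3.52, 2.99, 3.60 and 2.05 CPM. All 5 Q84 libraries were below the WT mean and 3 of them were below the lowest WT library. The log2 fold change was -0.43 (SE 0.21, 95% interval -0.90 to 0.04) and did not pass (edgeR adjusted p = 0.290). WT female 2 at 3.61 CPM and Q84 female 5 at 3.52 CPM were nearly alike, and with both the log2 fold change of Oprk1 was -0.36 (adjusted p = 0.405). In the 10 libraries it was -0.18 without Q84 male 1, and in the 6 females -0.16.

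Oprd1 (ENSMUSG00000050511, chromosome 4), the gene of the delta opioid receptor that binds enkephalins, was among the lowest members. It ranged from 0.941 to 2.20 CPM in the 5 WT and from 1.16 to 1.57 CPM in the 5 Q84 libraries, so the Q84 range lay within that of WT. Its log2 fold change was -0.15 (SE 0.24, 95% interval -0.67 to 0.37, edgeR adjusted p = 0.796). WT female 2 held 1.99 CPM, and the highest value of all 12 was 2.82 CPM in the library labelled Q84 female 5. With both the log2 fold change of Oprd1 was -0.05 (adjusted p = 0.957), and the 10 libraries gave -0.24 without WT male 1 and -0.065 without WT male 2.

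Oprl1 (ENSMUSG00000027584, chromosome 2) encodes the receptor of nociceptin and varied least among the members in the 10 libraries, with a coefficient of variation of 7.62%. It lay at 19.9 to 24.6 CPM in the 5 WT and at 22.4 to 25.5 CPM in the 5 Q84 libraries. The log2 fold change was 0.10 (SE 0.093, edgeR adjusted p = 0.612), and its 95% interval of -0.10 to 0.30 was the second narrowest after that of Cnr1. The library labelled Q84 female 5 stood below all others at 14.3 CPM, and WT female 2 held 20.3 CPM. With both the log2 fold change of Oprl1 was 0.04 (adjusted p = 0.921), and the 10 libraries gave 0.034 without WT female 3 and 0.22 without Q84 male 1.

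Sstr2 (ENSMUSG00000047904, chromosome 11), a receptor for the peptide somatostatin, had the largest estimated change and also the largest spread. WT male 1 to 3 held 1.86, 4.21 and 4.97 CPM, and WT female 1 and 3 held 3.48 and 1.94 CPM. Q84 male 1 held 1.94 CPM, and Q84 female 1 to 4 held 1.94, 0.898, 1.72 and 1.42 CPM. All 5 Q84 libraries lay below the WT mean of 3.29 CPM and 3 lay below the lowest WT library, but WT male 1 and WT female 3 were at the level of Q84. The log2 fold change of Sstr2 was -0.89 (SE 0.32, unadjusted p = 0.0180, edgeR adjusted p = 0.140). Without WT male 1 it was -0.99 and passed (edgeR adjusted p = 0.0299), in a fit that called 1978 of 18623 genes. WT female 2 and Q84 female 5 held 2.79 and 2.96 CPM, and with them the log2 fold change was -0.70 (adjusted p = 0.338).

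Adra2c (ENSMUSG00000045318, chromosome 5), the alpha2C adrenergic receptor gene, separated the 10 libraries without passing the test. WT male 1 to 3 held 1.88, 1.76 and 1.76 CPM, and WT female 1 and 3 held 1.65 and 1.51 CPM. Q84 male 1 held 0.801 CPM, and Q84 female 1 to 4 held 0.905, 1.43, 1.49 and 1.45 CPM. Every Q84 library lay below every WT library, as for 5.96% of genes tested, although 3 of them by little. The log2 fold change was -0.57 (SE 0.23, unadjusted p = 0.0322, edgeR adjusted p = 0.196). The order was turned in the 2 libraries apart, with 1.28 CPM in WT female 2 and 2.55 CPM in Q84 female 5, and with both the log2 fold change was -0.24 (adjusted p = 0.763). In the 10 libraries the estimate of Adra2c was -0.26 without Q84 male 1, and in the 6 females it was -0.25.

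Adra2a (ENSMUSG00000033717, chromosome 19), which encodes the alpha2A receptor for noradrenaline, overlapped between the groups, at 1.41 to 2.26 CPM in the 5 WT and 1.59 to 2.62 CPM in the 5 Q84 libraries. Its log2 fold change was 0.16 (SE 0.19, 95% interval -0.26 to 0.57, edgeR adjusted p = 0.722). WT female 2 was at 1.80 CPM and Q84 female 5 at 3.72 CPM, the highest of the 12. With both the log2 fold change of Adra2a was 0.32 (adjusted p = 0.522). The 10 libraries gave 0.090 without Q84 male 1 and 0.27 without WT female 1.

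The library labelled Q84 female 5 was thus at an extreme of the 12 libraries for 5 members, the highest for Oprd1, Adra2a and Adra2c and the lowest for Oprm1 and Oprl1. Counts behind the members differed widely. The smallest estimated count was 60.0, for Adra2c in Q84 male 1, and the largest was 6961, for Cnr1 in WT female 2.

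None of the 8 receptor genes differed between males and females at an adjusted p under 0.05 in the 12 libraries (edgeR). DESeq2 likewise called 0 members. At an unadjusted p under 0.05 there were 0 members, beside 721 of 18875 genes (edgeR). Of all genes, edgeR called 0.0636%, 0.0159% lower and 0.0477% higher in males. With a single Q84 male, a different effect of genotype in the sexes was not tested. Most of the counts of each member came from a single transcript. The most abundant transcript held 95.1% of Oprm1 counts on average, with 85.9 to 97.9% over the libraries, and its lowest share was in Q84 female 5. It held 89.2% of Cnr1, 93.4% of Sstr2, 89.6% of Oprk1, 80.7% of Adra2a and 61.7% of Oprl1, while Oprd1 and Adra2c have 1 listed transcript. The share of Oprk1 ran from 59.8% in Q84 male 1 to 98.7%. None of the 12 comparisons of this share between genotypes passed (two-sided exact permutation tests over libraries, 6 genes in both sets of libraries, smallest unadjusted p = 0.0671 and adjusted p = 0.390).

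The genes whose levels followed each receptor most closely over the 12 libraries were found among 13587 genes with a mean of at least 1 CPM, by Pearson's r of log2 CPM. For Cnr1 they were Bdnf, the gene of brain-derived neurotrophic factor, with r = 0.958 (n = 12), and Mei4 (0.936). For Oprm1 they were Ano10 (0.952) and Timm29 (0.947), for Oprl1 Alg13 (0.927) and Bloc1s6 (0.909), and for Oprk1 Tmem65 (0.930) and Nrsn1 (0.914). For Oprd1 they were Fgfr1 (0.964) and Hecw1 (0.960). Sstr2 was closest to Slc22a18 (0.954) and to Asic3 (0.935), which encodes an acid-sensing channel of sensory neurons. Adra2a was closest to Klf4 (0.889) and Pkdcc (0.883), and Adra2c to Tlnrd1 (0.923) and Diablo (0.919). The points share their libraries, so genotype, depth and the 2 libraries apart enter each r, and the genes were the highest of many.

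The other genes of the pathway, set out in lists of ligands, other receptors, G proteins, effectors and regulators, were read in the same fits. Of 101 genes tested in these lists, which leave out the 8 receptors above, none passed in the 12 libraries as labelled (edgeR). DESeq2 called 6 of them lower and 3 higher there, beside 454 lower and 166 higher of all 18875 genes. In the 10 libraries 27 passed (edgeR), 22 lower and 5 higher, or 26.7%, beside 6.45% of all genes. The lists were chosen with earlier results known, so these shares are a description. Of these 27 calls, 14 were kept whichever library was left out, 12 were lost without Q84 male 1, the only Q84 male, and 7 without WT female 3. Over all genes edgeR called 1208 in the 10 libraries, 681 without Q84 male 1 and 739 without WT female 3. In the 12 libraries the adjusted p of these 27 genes ran from 0.0958 to 0.661 (edgeR). The library labelled Q84 female 5 lay outside the range of the 5 Q84 libraries for all 27 and above the highest WT library for 8 of them, Adora1, Gnao1 and Rgs3 included. The library labelled WT female 2 lay outside the range of the 5 WT libraries for 15 of the 27 and within it for the rest. Such counts were not taken over all genes.

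Among the receptors' ligands and the endocannabinoid enzymes, 4 of 12 tested fell in the 10 libraries and 0 rose, with a median log2 fold change of -0.34. Sst, the gene of somatostatin and so of the ligand of Sstr2, averaged 10.7 ± 4.76 CPM in WT and 3.94 ± 1.12 CPM in Q84 libraries (SD, n = 5 per genotype), a log2 fold change of -1.70 (edgeR adjusted p = 0.000648). Sst was also among the itch neuron markers counted above. WT female 2 and Q84 female 5 held 11.4 and 18.9 CPM of Sst. The opioid precursor genes Penk, Pdyn and Pnoc, of enkephalin, dynorphin and nociceptin, also fell, by 1.17, 1.59 and 1.99 on the log2 scale. Their calls were lost in 8, 5 and 8 of the 10 fits without one library, and Pdyn and Pnoc lay under 1 CPM on average. Mgll, whose enzyme degrades the endocannabinoid 2-AG, had a log2 fold change of -0.36 and did not pass (edgeR adjusted p = 0.136).

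Of 24 other Gi/o-coupled receptor genes tested, 7 fell and 0 rose, with a median log2 fold change of -0.31. They included 4 serotonin receptor genes of the 5-HT1 class, the class targeted by triptans: Htr1a, Htr1b, Htr1d and Htr1f. Htr1f averaged 9.82 ± 0.645 CPM in WT and 4.57 ± 0.784 CPM in Q84 libraries (SD, n = 5 per genotype, edgeR adjusted p = 0.000473). Htr1a averaged 14.6 ± 3.28 and 6.80 ± 0.400 CPM (adjusted p = 0.00188). Adora1, the adenosine A1 receptor gene, fell from 26.6 ± 4.55 to 14.7 ± 2.14 CPM. The calls of Htr1f, Htr1a and Adora1 were kept without any one library. Npy2r, of a neuropeptide Y receptor, fell by 0.82 on the log2 scale, a call lost without WT female 3 or Q84 male 1. Adra2b, the close relative of Adra2a and Adra2c, fell by 1.33 on the log2 scale, a call lost in 7 fits without one library. The call of Htr1b was lost in 5 such fits and that of Htr1d without Q84 male 1.

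Of 20 G protein subunit genes, 4 fell and 2 rose, with a median log2 fold change of 0.03. Gnb3, a beta subunit known from cone photoreceptors, averaged 1.77 ± 0.726 CPM in WT and 0.204 ± 0.0984 CPM in Q84 libraries (SD, n = 5 per genotype), a log2 fold change of -3.31 (edgeR adjusted p = 0.000313). Gnb3 was at 0.444 CPM in WT female 2, between the 5 Q84 (0.115 to 0.335 CPM) and the 5 WT libraries (1.01 to 2.89 CPM). Q84 female 5 held 1.72 CPM of Gnb3, within the range of the 5 WT libraries. Gnao1, the alpha subunit of Go, which is abundant in neurons, went from 181 ± 34.7 to 118 ± 9.65 CPM, and its call was lost without WT female 3 or Q84 male 1. Gng8 and Gnb4 fell by 1.19 and 0.52 on the log2 scale. Gng13 and Gng4 rose by 1.36 and 0.59, with Gng13 averaging 0.377 CPM in WT libraries and 1.04 CPM in Q84 libraries, and their calls were lost in 2 and 4 fits without one library, those without WT female 3 or Q84 male 1 included.

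Of 16 effector genes, namely GIRK channels, presynaptic calcium channels and adenylyl cyclases, 1 rose and 0 fell, with a median log2 fold change of 0.03. Kcnj3, which encodes the GIRK1 potassium channel subunit, averaged 44.1 ± 3.81 CPM in WT and 60.2 ± 3.50 CPM in Q84 libraries (SD, n = 5 per genotype), a log2 fold change of 0.43 (edgeR adjusted p = 0.0102). Without WT female 1 or Q84 male 1 the call of Kcnj3 was lost. As for Cnr1, the library labelled WT female 2 was high in Kcnj3, at 64.1 CPM. Q84 female 5 held 50.4 CPM of Kcnj3, between the 5 WT (39.9 to 48.1 CPM) and the 5 Q84 libraries (56.5 to 65.6 CPM).

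Of 29 regulator genes, 7 fell and 2 rose, with a median log2 fold change of -0.10. The 7 that fell were Rgs3, Rgs4, Rgs6, Rgs7, Rgs8, Rgs10 and Rgs14, of 15 RGS genes tested in this list. RGS proteins speed the shut-off of G protein signalling. The other 8 RGS genes of the list did not pass, with log2 fold changes of -0.31 to 0.59. Rgs5, given below with the pericyte markers, was not in the list. Rgs4 averaged 2371 ± 376 CPM in WT and 1246 ± 167 CPM in Q84 libraries (SD, n = 5 per genotype, edgeR adjusted p = 0.000451), and Rgs8 fell by 1.67 on the log2 scale. The calls of Rgs6 and Rgs14 were lost in 4 and 7 fits without one library. Gprasp1 and Gprasp2 encode sorting proteins that steer internalised receptors, the delta opioid receptor among them, towards lysosomes. Gprasp1 rose from 382 ± 37.5 to 608 ± 31.1 CPM (edgeR adjusted p = 0.000447), and the log2 fold change of Gprasp2 was 1.14. The receptor kinase genes, the arrestin genes and Cnrip1, the gene of a CB1-interacting protein, did not pass.

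**Figure D4:**
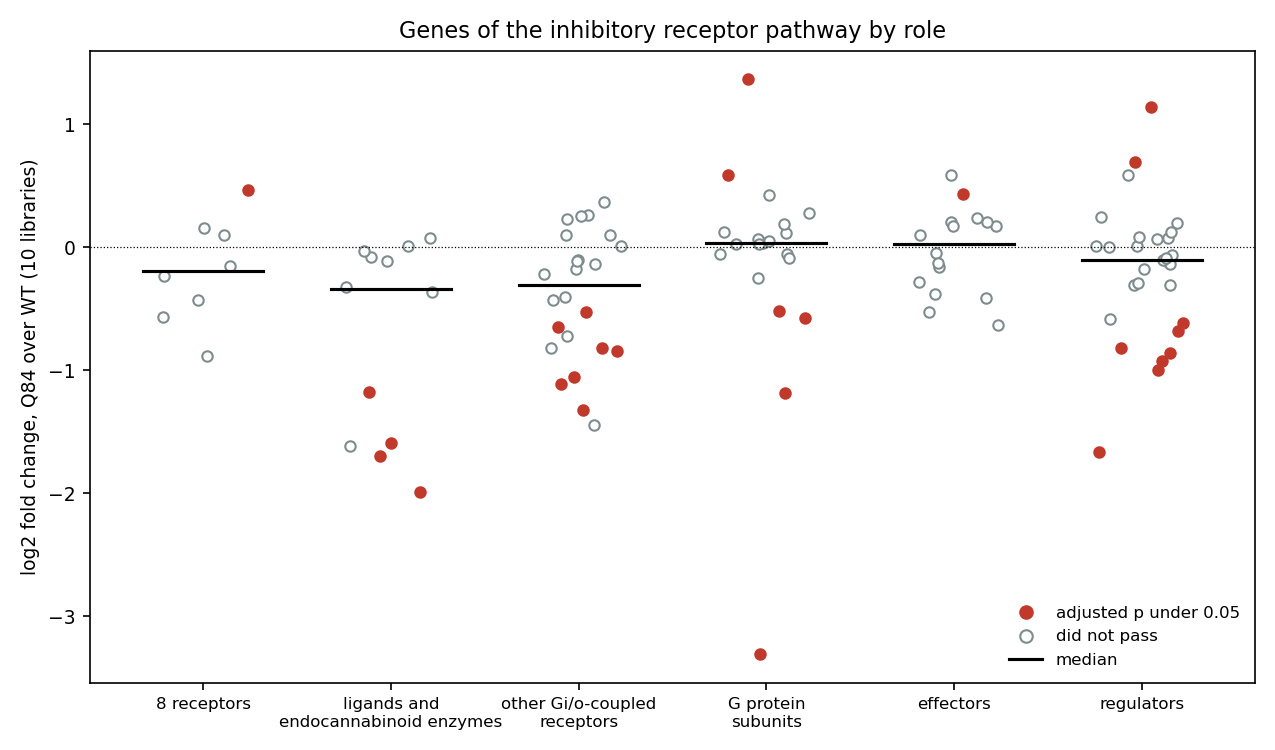
Log2 fold change of Q84 over WT in the 10 libraries for every tested gene of the pathway, by role, filled red where the adjusted p was under 0.05 and with the median of each list as a bar. The called genes among ligands and other receptors all lie below 0, and the 1 called receptor of the 8 members and the 1 called effector lie above it.

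Other measures were also compared between the genotypes in the same 10 libraries. Mitochondrial transcripts held 6.85 to 9.55% of counts in WT and 8.91 to 11.0% in Q84 libraries. Summed pericyte markers lay at 313 to 510 against 155 to 190 CPM, which followed Rgs5, the 1 of 4 markers that was lower (log2 fold change -1.38). Pdgfrb, Kcnj8 and Acta2 had log2 fold changes of 0.60, 0.73 and 0.54 and did not pass. Surface epithelium markers lay at 0.142 to 172 CPM in WT, highest in WT female 1, and at 0 to 0.195 CPM in Q84, with 3 of 4 lower. The lowest WT library was thus within the range of Q84. No marker of satellite glia, Schwann cells, macrophages or endothelium passed, and 1 of 4 fibroblast markers was higher. Red blood cell markers lay at 173 to 1033 against 462 to 1826 CPM, with 0 of 5 passing (edgeR) and 5 at an unadjusted p under 0.05. Adipocyte markers lay at 0.862 to 1.49 against 0.831 to 10.1 CPM, with 0 of 4 passing and 3 at an unadjusted p under 0.05. Over all 18721 genes tested, 3785 were at an unadjusted p under 0.05 (edgeR). The part of these and of the lower sensory neuron markers in the values of the receptor genes was not tested.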

How the data were processed

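Ganglion poly(A) RNA of 12 libraries was deposited as 1 table each of 116313 transcripts. Per the file headers the tables hold the authors' estimated counts, which are unscaled and need not be whole, and TPM values, which the authors scaled to transcript length. The submitters' processing notes name kallisto 0.46.2, STAR 2.7.10b and GRCm39 without roles, and the transcript release was not given in the labels or headers. Transcripts were assigned to genes by identifier in GENCODE M21, of another build (98.3% matched), so no coordinates of the files are given. Kallisto splits shared reads by likelihood. The counts were added up by gene and rounded to whole numbers.

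Genes were filtered (filterByExpr), scaled (TMM) and compared by quasi-likelihood in edgeR 4.0.16, with sex as a covariate, adjusted over all genes tested, at a threshold of 0.05. DESeq2 1.42.0, limma-voom (limma 3.58.1), other scalings and filters, length-scaled TPM, no sex term, leaving out each library and a replicate block were alternatives. For males against females, only DESeq2, leaving out each library and the replicate block were run. All members, every pathway gene that passed, and the 2 genes nearest each member in r were named. Mgll, Rgs5 and the other pericyte markers, and the regulators that did not pass were added after their values were seen. Members and lists were chosen with earlier results of these data known.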

Additional observations from a re-analysis of the deposited data

Results flagged for a closer look

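In the 24 groups of 5 or 6 libraries tested for a single library far from the others, 6 stood out, where chance gives about 1 in 20. The 5 Q84 females are part of the 6 Q84 libraries, so the groups are not separate. The library labelled Q84 female 5 was the highest Q84 library for Oprd1, at 2.82 CPM, both among 6 Q84 libraries and among the 5 Q84 females, with the next at 1.57 CPM. It was the lowest for Oprl1, at 14.3 CPM, in the same groups, with the next at 22.4 CPM, and the lowest of 6 for Cnr1, at 55.4 CPM, with the next at 74.3 CPM. The library labelled WT female 2 was the highest of 6 WT libraries for Cnr1, at 93.8 CPM, with the next at 60.4 CPM. These are the libraries whose Atxn3 transcript went against the label.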

How the results depend on the processing

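The called rise of Cnr1 in the 10 libraries kept its direction and its call under all 20 alternatives. In the 12 and the 8 female libraries no setting called a member. Left-out libraries gave 0 to 1 members lower in the 10 libraries, and 0 to 1 lower and 0 to 1 higher in the 6 female libraries. Scaling to neuronal markers moved the median of all genes by 0.145 in the 12 and 0.141 in the 10 libraries and split the calls of the 10 libraries into 601 lower and 588 higher, beside 923 and 285.

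Of the pathway genes, with 0 called in the 12 libraries, DESeq2 called 6 lower and 3 higher and no sex term gave 2 and 2. Left-out libraries gave 0 to 20 lower and 0 to 3 higher. Over all genes DESeq2 called 620, no sex term 193 and left-out libraries 0 to 1082, beside 1 in the main fit. In the 8 females, with 0 called, DESeq2 called 1 lower and left-out libraries gave 0 to 17 lower and 0 to 2 higher. Over all genes these settings called 149 and 0 to 843. Left-out fits of the 10 libraries called 681 to 1978 genes in all. Their range for the pathway genes was 13 to 23 lower and 2 to 6 higher. In the 6 females, with 17 lower and 5 higher, it was 11 to 18 and 2 to 7, and length-scaled TPM gave 3 higher. The causes were not tested.

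Correlations of deviations from the group mean were -0.128 to 0.0904 in the 3 same-numbered female pairs and -0.174 to 0.172 in the others. The labels do not state whether the numbers pair animals, and 3 pairs cannot decide it. The replicate block gave 18 lower and 2 higher pathway genes in the 12 libraries and 15 and 3 in the 8 females. In the 6 females it gave 3 higher. Over all genes the block called 639, 475 and 758 in these sets. It also turned log2 fold changes that did not pass: Oprd1 -0.29 and Adra2c -0.24 in the 8 females, Oprk1 0.072 in the 6 females, and for sex Oprd1 0.072 and Adra2c 0.042.

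Other estimates that turned sign did not pass under any setting. Scaling to neuronal markers gave Oprd1 0.11 (12 libraries) and 0.0066 (10 libraries), no sex term gave Oprl1 -0.019 (12 libraries), and limma-voom gave Oprd1 -0.057 (8 females). Left-out ranges that crossed 0 were, in the 12 libraries, -0.23 to 0.024 for Oprd1 and -0.45 to 0.082 for Adra2c. In the 8 females they were -0.26 to 0.13 for Oprd1, -0.17 to 0.23 for Adra2c and -0.0028 to 0.45 for Cnr1, and in the 6 females -0.32 to 0.011 for Oprk1 and -0.031 to 0.26 for Adra2a. For sex they were -0.41 to 0.084 for Oprm1, -0.26 to 0.075 for Oprd1, -0.15 to 0.20 for Oprk1, -0.18 to 0.083 for Cnr1 and -0.24 to 0.28 for Adra2c. Transcript shares moved by left-out libraries, in percentage points for the 12 and 10 libraries, from -6.80 to 0.966 and -8.74 to 0.967 for Oprk1, -0.504 to 1.52 and -0.645 to 1.90 for Cnr1, and -0.637 to 5.17 and -2.46 to 4.80 for Adra2a. Estimated counts of Oprd1, Oprk1, Adra2a, Adra2c and Sstr2 were 60.0 to 407 per library, which limits their precision beside the spread between libraries.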
